A study of Homo sapiens with 2 samples.

Results

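Fatty acid synthesis, oxidation and ketogenesis were followed here through 41 genes, chosen by their names from the 58735 genes of the deposited count table. They fall into 16 genes of synthesis and storage, 8 genes of uptake and activation and 17 genes of oxidation and ketone bodies. The data are 1 RNA-seq library each of MAEL WT and MAEL KO cells of the human hepatoma line PLC/PRF/5 (8024), named Alexander cells in the labels. MAEL WT cells were not treated. MAEL KO cells received an sgRNA and Cas9 against MAEL, a cancer/testis gene best known for its role in the germline, and knockout cells were grown from single sorted cells, so that the library may stand for 1 clone. Both were kept in high-glucose medium with fetal bovine serum, according to the study's methods. The comparison addresses how the transcriptome of these MAEL KO cells differs from that of the MAEL WT cells.

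Liver cells make fatty acids from citrate. ACLY splits citrate to acetyl-CoA, the acetyl-CoA carboxylases make malonyl-CoA, and FASN builds palmitate, which elongases and desaturases lengthen and unsaturate. Acyl-CoA synthetases activate fatty acids, which are then esterified to triglyceride and stored in droplets or carried by CPT1A, SLC25A20 and CPT2 into mitochondria. There, dehydrogenases, hydratases and thiolases shorten them to acetyl-CoA, which the liver can turn into ketone bodies. Malonyl-CoA blocks CPT1A, which keeps synthesis and oxidation apart.

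MAEL itself had 1 count in MAEL WT and 0 counts in MAEL KO, which is too few to check the labels or to show a loss of MAEL RNA. The paper chose this line for its MAEL level, the highest among its lines, which it measured by Western blot. The libraries held 19904136 and 20833332 counts. The 40 members other than CD36 had at least 10 counts in 1 library and were among the 17887 genes tested. Fold changes are on the log2 scale with 1 added to TMM-normalized counts, with MAEL WT as the base. The 95% intervals are exact (Clopper-Pearson) and hold for counting error alone. Duplicate reads of 1 molecule were not marked by identifiers, so the intervals may be too narrow even for that error. With 1 library per group there is no replicate error, so no difference has a test, and clone, culture and knockout cannot be told apart. Hepatocyte markers were present, as 9 of 10 had at least 10 counts, but their summed FPKM was 1644 in MAEL WT and 4859 in MAEL KO. All 9 were above 0 on the log2 scale, or 8 with total counts, where 48.0% and 34.6% of all tested genes were. ALB had 59 and 8550 counts, and CYP3A4 had 0 and 2. Of 6 adipocyte markers, FABP4 and ADIPOQ had 0 counts in both libraries, and the summed FPKM of the list was 2.20 and 0.958. The 6 cholangiocyte markers summed to 4.08 and 1.42 FPKM, with KRT7 at 60 counts and 1 count and EPCAM at 15 and 0, and all 5 tested were below 0. The 7 fibroblast and stellate markers summed to 1.63 and 1.33, and the 7 leukocyte and endothelial markers to 34.6 and 25.0, most of it LYZ. The part of these lists in the results on fatty acid genes was not tested.

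By fold alone, most of the pathway was higher in MAEL KO. The interval lay above 0 for 9 of the 16 genes of synthesis and storage, 4 of the 7 tested genes of uptake and activation and 14 of the 17 genes of oxidation and ketone bodies, and below 0 for 3, 2 and 2. The summed FPKM of these groups went from 912 to 1231, from 131 to 283 and from 322 to 418. Of the 40 members, 9 had a log2 fold change above 1, a share of 22.5%, where 10.2% of all tested genes did. Only ACSL1 was below -1, a share of 2.5%, where 16.5% of all tested genes were. Past 2, the threshold of the study's methods, there was 1 member, FABP1, where 2.16% of all tested genes were above 2 and 5.64% were below -2. The interval lay above 0 for 27 members and below 0 for 7, shares of 67.5% and 17.5%, where it did so for 34.8% and 34.7% of all tested genes. Members were counted more deeply than most genes, which narrows intervals. Among the 12023 genes with at least 100 counts in 1 library, 9.23% were above 1 and 9.16% below -1, and of the 37 members with that depth 24.3% and 2.70% were. Their interval lay above 0 for 70.3% and below 0 for 18.9%, where it did so for 45.1% and 36.1% of the genes of that depth. Nearest to the threshold of 1, HADH was at 1.00 inside and FASN at 0.93 outside, and nearest to -1, ACSL1 was at -1.37 inside and ACSL3 at -0.76 outside.

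These counts depended on the scaling between libraries. Scaled by library totals instead, the median of all tested genes moved by -0.27, and 1 member, FABP1, was above 1 where 6.56% of all tested genes were. The members below -1 were then 2, ACSL1 and ACSL3, where 22.5% of all tested genes were. The median of the members moved alike, from 0.48 to 0.20. The medians were 0.30 for synthesis and storage, 0.68 for uptake and activation and 0.70 for oxidation and ketone bodies, and -0.04 for all tested genes. With total counts they were 0.033, 0.40 and 0.43, and -0.31 for all tested genes.

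**Figure D1:**
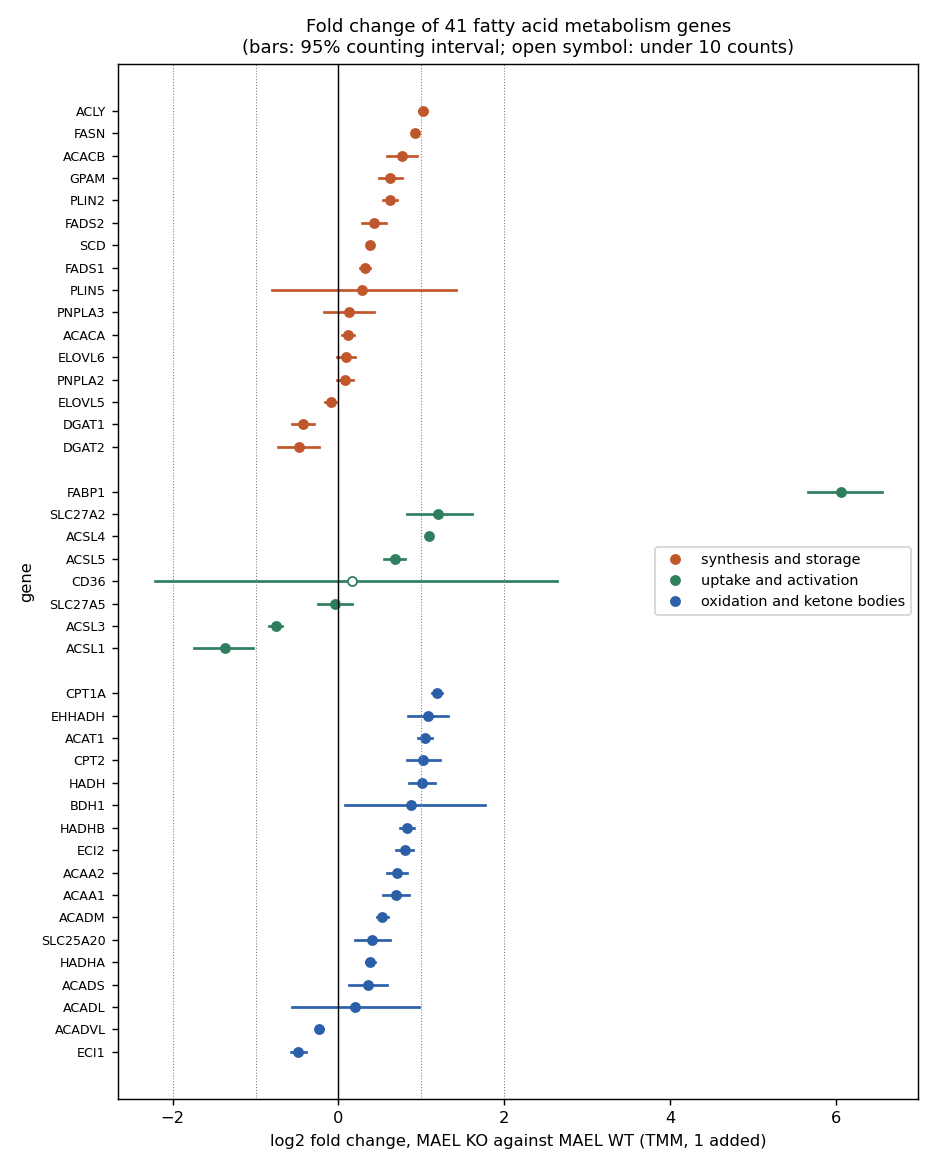
Log2 ratio of MAEL KO to MAEL WT for each of the 41 genes on the x axis, by group, with bars for the 95% counting interval and dotted lines at 1 and 2 in both directions. FABP1 stands alone at 6.06, and 15 of the 17 genes of oxidation and ketone bodies lie above 0, or 14 with total counts. Of all tested genes, 48.0% lie above 0, or 34.6% with total counts.

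The promoters of 4 genes are shown because the results turn on these genes: FABP1 has the largest difference, ACLY is the single member of synthesis above 1, SCD is the most abundant member, and HADHB shares its upstream sequence with HADHA. RefSeq windows of 250 bases before to 50 bases after a start on GRCh38.p14 were found for 35 of the 41 members, 55 windows in all. In the FABP1 window, chr2:88128013-88128312 on the minus strand, capitals mark a TATA box (TATAAA) and 2 copies of AGGTCA, the hexamer that nuclear receptors bind, 1 of them on the other strand. In the ACLY window, chr17:41918973-41919272 on the minus strand and 1 of 2 for this gene, and in the SCD window, chr10:100346983-100347282 on the plus strand, capitals mark CCAAT, in either strand. In the HADHB window, chr2:26244689-26244988 on the plus strand, capitals mark the 194 bases that lie also in the HADHA window.
FABP1: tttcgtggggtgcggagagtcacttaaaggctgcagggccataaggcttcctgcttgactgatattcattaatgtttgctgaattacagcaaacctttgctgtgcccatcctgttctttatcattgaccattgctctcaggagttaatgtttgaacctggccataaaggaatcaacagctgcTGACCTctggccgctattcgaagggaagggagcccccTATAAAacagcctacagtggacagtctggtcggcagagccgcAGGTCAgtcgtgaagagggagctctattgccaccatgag
ACLY: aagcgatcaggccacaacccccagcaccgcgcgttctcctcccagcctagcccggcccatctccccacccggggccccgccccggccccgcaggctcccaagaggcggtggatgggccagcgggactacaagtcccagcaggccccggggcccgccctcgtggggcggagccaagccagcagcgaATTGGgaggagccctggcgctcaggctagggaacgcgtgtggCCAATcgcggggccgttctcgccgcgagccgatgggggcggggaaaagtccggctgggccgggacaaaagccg
SCD: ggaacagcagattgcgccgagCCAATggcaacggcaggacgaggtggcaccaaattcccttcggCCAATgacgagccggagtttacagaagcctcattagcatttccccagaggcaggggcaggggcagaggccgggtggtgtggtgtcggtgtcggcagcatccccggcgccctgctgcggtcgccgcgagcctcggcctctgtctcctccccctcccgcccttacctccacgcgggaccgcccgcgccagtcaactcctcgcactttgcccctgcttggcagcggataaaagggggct
HADHB: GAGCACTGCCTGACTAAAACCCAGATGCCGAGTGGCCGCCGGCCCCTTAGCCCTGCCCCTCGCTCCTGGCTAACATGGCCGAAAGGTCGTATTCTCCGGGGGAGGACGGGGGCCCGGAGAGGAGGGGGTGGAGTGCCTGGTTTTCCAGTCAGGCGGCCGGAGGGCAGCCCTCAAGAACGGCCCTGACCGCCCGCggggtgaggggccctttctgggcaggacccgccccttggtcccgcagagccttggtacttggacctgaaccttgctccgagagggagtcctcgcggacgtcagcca

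Searched on both strands, with no overlap among these motifs, CCAAT lay in 29.1% of the 55 member windows and in 34.6% of all 35116 windows. TATAAA lay in 10.9% and 11.5%, AGGTCA in 9.09% and 13.8%, the E-box CACGTG in 3.64% and 7.26%, and TCACNCCAC, a form of the sterol regulatory element, in 3.64% and 1.13%. The members with TCACNCCAC were ACSL1 and PNPLA2, at -1.37 and 0.08 on the log2 scale. CAAAGGTCA, which contains AGGTCA and is the core of a DR1 element, lay in 0 member windows and in 0.407% of all windows. A match describes these letters in these windows and no more. In the FABP1 window TATAAA began 31 bases before the start, and the copies of AGGTCA lay 68 bases before it and from base 12 after it.

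ACLY and FASN were higher in MAEL KO by fold alone, and other genes that supply synthesis went both ways. The citrate carrier SLC25A1 had 1969 and 3141 counts and was at 0.88 (95% interval 0.80 to 0.97). Chosen after their values were seen, ACSS2, which makes acetyl-CoA from acetate, had 2542 and 1634 counts and was at -0.43 (95% interval -0.52 to -0.34), and ME1, which supplies NADPH, had 3107 and 1165 counts and was at -1.20 (95% interval -1.30 to -1.11). ACLY, on chromosome 17 from 41866908 to 41930542 on the minus strand of GRCh38, had 5114 counts in MAEL WT and 8975 in MAEL KO, or 44.8 and 90.7 FPKM. Its log2 fold change was 1.02 (95% interval 0.97 to 1.07), a 2.03-fold difference, and 0.75 with total counts. FASN, the fatty acid synthase, had 18283 and 30060 counts and was at 0.93 (95% interval 0.90 to 0.95). The carboxylases between them differed from each other. ACACA, the cytosolic form that feeds FASN, had 2894 and 2713 counts and was at 0.12, and at -0.16 with total counts. ACACB, which lies on the outer mitochondrial membrane and makes the malonyl-CoA that blocks CPT1A, had 423 and 624 counts and was at 0.77. In FPKM, ACACB was 11.6% ± 0.533 (counting SE) of both carboxylases in MAEL WT and 17.1% ± 0.629 in MAEL KO.

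The desaturases and elongases among the members were closer to 0 than ACLY and FASN. Others of these families, given below, went further in both directions, such as ELOVL3 at 2.27 and ELOVL4 at -2.54. SCD, which introduces the double bond of oleate, was the most abundant member in both libraries, with 72067 and 80798 counts, or 614 and 795 FPKM, and a log2 fold change of 0.38. It made up 67.3% of the summed FPKM of synthesis and storage in MAEL WT and 64.5% in MAEL KO. FADS1 and FADS2, the desaturases of polyunsaturated fatty acids, are neighbours on opposite strands of chromosome 11. FADS1 had 4716 and 5079 counts and was at 0.32, and FADS2 had 718 and 835 counts and was at 0.43. The FADS1 to FADS2 ratio of FPKM was 7.08 and 6.56. Their gene models share 490 exon bases, so reads of the pair may be split between them. ELOVL5, which elongates polyunsaturated fatty acids, had 4847 and 3921 counts and was at -0.10. ELOVL6, which elongates palmitate, had 1536 and 1413 counts and was at 0.09 (95% interval -0.02 to 0.20), where no difference was detectable at this depth.

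Esterification and storage were split. GPAM, the mitochondrial acyltransferase that begins glycerolipid synthesis, had 741 and 990 counts and was at 0.63. Both diacylglycerol acyltransferases, which make triglyceride in the last step, were lower in MAEL KO. DGAT1 had 1205 and 777 counts, a log2 fold change of -0.42, and DGAT2 had 371 and 230 counts and was at -0.48 (95% interval -0.72 to -0.24), the lowest of synthesis and storage. DGAT1 shares 139 exon bases with HSF1 on the opposite strand, which had 2525 and 1639 counts. The strand setting of the counting is not given in the sources used here, so reads of such partners cannot be told apart. Of the other members, ACADVL, ACSL4, ACSL5, ACADM and PNPLA3 share between 78 and 224 exon bases with a neighbour. The ratio within the pair was kept, as DGAT2 was 13.9% ± 0.709 and 13.4% ± 0.871 of their FPKM.

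Among droplet proteins, PLIN2, the perilipin that coats droplets in most cells, had 1809 and 2409 counts and was at 0.62. PLIN5, which ties droplets to mitochondria in oxidative tissue, had 15 and 16 counts, and its interval of -0.81 to 1.42 was wide. PNPLA2, the main triglyceride lipase, had 1898 and 1732 counts and was at 0.08, and PNPLA3, a lipase and acyltransferase of hepatocytes, had 191 and 181 counts and was at 0.13. Both intervals included 0. With total counts PNPLA2, PNPLA3, ACACA, ELOVL6 and, among the oxidation genes, ACADL were below 0 in place of above. Thus 9 of the 16 genes of synthesis and storage were above 0 where 13 were with TMM factors. Of all tested genes, 34.6% were above 0 with total counts and 48.0% with TMM factors.

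**Figure D2:**
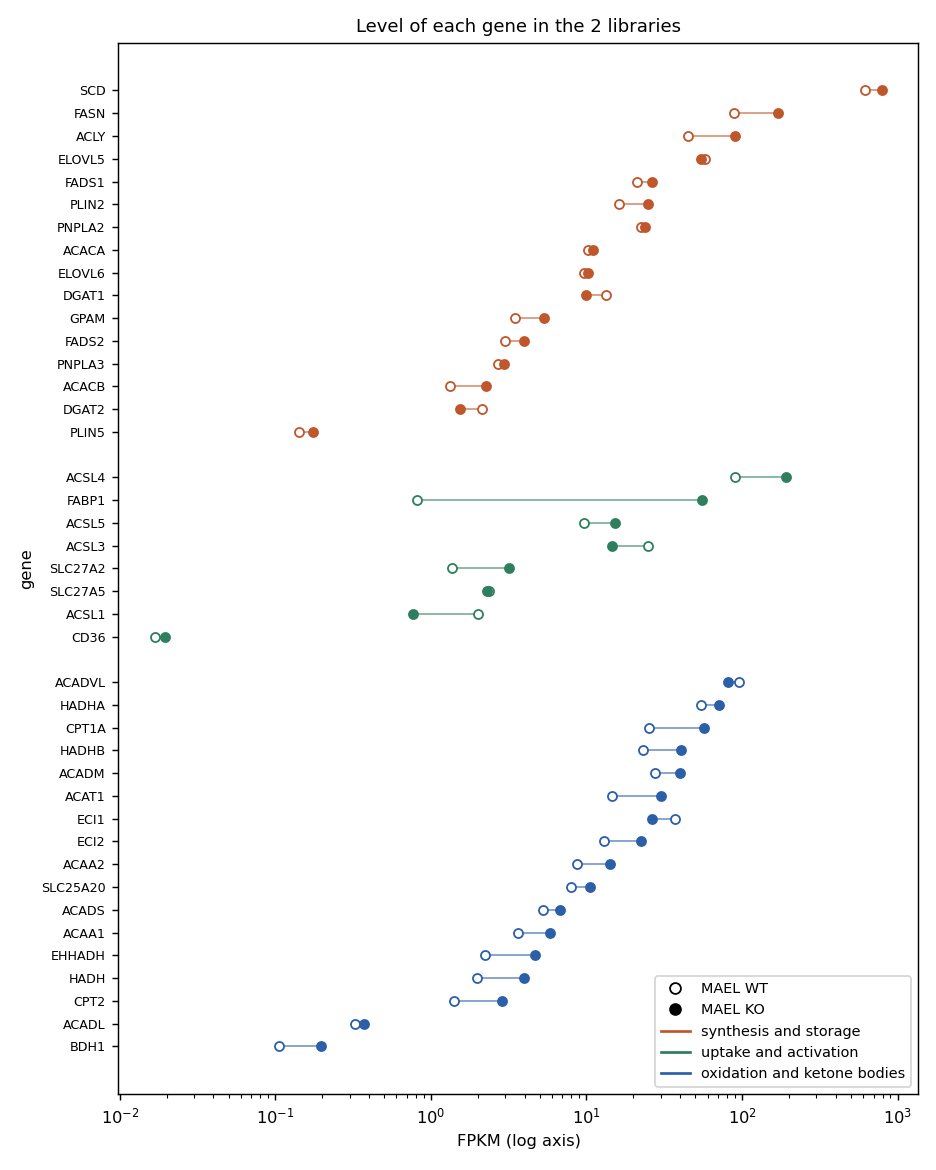
Level of each of the 41 genes in FPKM on a log axis, with open symbols for MAEL WT and filled symbols for MAEL KO. SCD is highest in both libraries, at 614 and 795 FPKM, CD36 is lowest, at 0.0168 and 0.0194, and FABP1 spans the widest gap, from 0.814 to 55.4.

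Uptake and activation held the largest differences in both directions. FABP1, the liver fatty acid binding protein that carries fatty acids through the cytosol, lies on chromosome 2 from 88122982 to 88128116 on the minus strand. It had 44 counts in MAEL WT and 2596 in MAEL KO, or 0.814 and 55.4 FPKM. Its log2 fold change was 6.06 (95% interval 5.66 to 6.56), a 66.7-fold difference, and 5.79 with total counts. Among the 41 members it was at rank 37 by FPKM in MAEL WT and rank 8 in MAEL KO. FABP1 is itself a hepatocyte gene, and the hepatocyte markers above moved with it.

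The transporters were low. SLC27A2, a very long-chain acyl-CoA synthetase of liver and kidney, had 84 and 168 counts and was at 1.20 (95% interval 0.82 to 1.61). SLC27A5, which activates bile acids as well as fatty acids, had 414 and 348 counts and was at -0.04 (95% interval -0.25 to 0.17). It shares 14.1% of its exon bases with ZNF446 on the opposite strand. CD36, the scavenger receptor that takes up fatty acids, had 4 counts in each library and was not tested.

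The acyl-CoA synthetases went in opposite directions. ACSL1, on chromosome 4 from 184755595 to 184826818 on the minus strand and the main form in adult liver, had 277 and 92 counts, or 2.02 and 0.772 FPKM. Its log2 fold change was -1.37 (95% interval -1.74 to -1.03), the lowest of all members, and its level was 2.59 times as high in MAEL WT. ACSL3, which supplies growing droplets, had 3931 and 2011 counts and was at -0.76. ACSL4, which prefers arachidonate and shapes the polyunsaturated phospholipids on which ferroptosis depends, lies on chromosome X from 109624244 to 109733403 on the minus strand. It had 12582 and 23264 counts, or 89.7 and 191 FPKM, and was at 1.10 (95% interval 1.07 to 1.13). ACSL5, a form of mitochondria and the endoplasmic reticulum, had 892 and 1233 counts and was at 0.68.

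Shares within a family do not depend on the scaling between libraries. Of the summed FPKM of ACSL1, ACSL3, ACSL4, ACSL5 and ACSL6, ACSL4 took 71.0% ± 0.348 (counting SE) in MAEL WT and 86.1% ± 0.228 in MAEL KO. ACSL3 took 19.7% ± 0.286 and 6.59% ± 0.143, and ACSL1 1.60% ± 0.0952 and 0.348% ± 0.0362. The ACSL4 share was thus higher and the ACSL3 and ACSL1 shares lower in MAEL KO, while ACSL5 stood at 7.63% ± 0.242 and 6.91% ± 0.188. Among FABP1 to FABP7, FABP1 went from 2.06% ± 0.308 to 26.5% ± 0.457, and FABP5, the epidermal form, from 93.6% ± 0.704 to 73.1% ± 0.462. FABP5 nonetheless had 1681 and 6032 counts, a log2 fold change of 2.05. Its value is uncertain, because 13 genes named as its pseudogenes held a further 238 and 928 counts. Those counts were higher in MAEL KO as well, so the direction of the difference was the same. In the elongase family, ELOVL5 took 40.5% ± 0.466 and 32.6% ± 0.446, and ELOVL2, which elongates long polyunsaturated chains, 18.6% ± 0.354 and 27.4% ± 0.415. GPAM took 11.5% ± 0.425 and 19.0% ± 0.592 of the glycerol-3-phosphate acyltransferases.

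**Figure D3:**
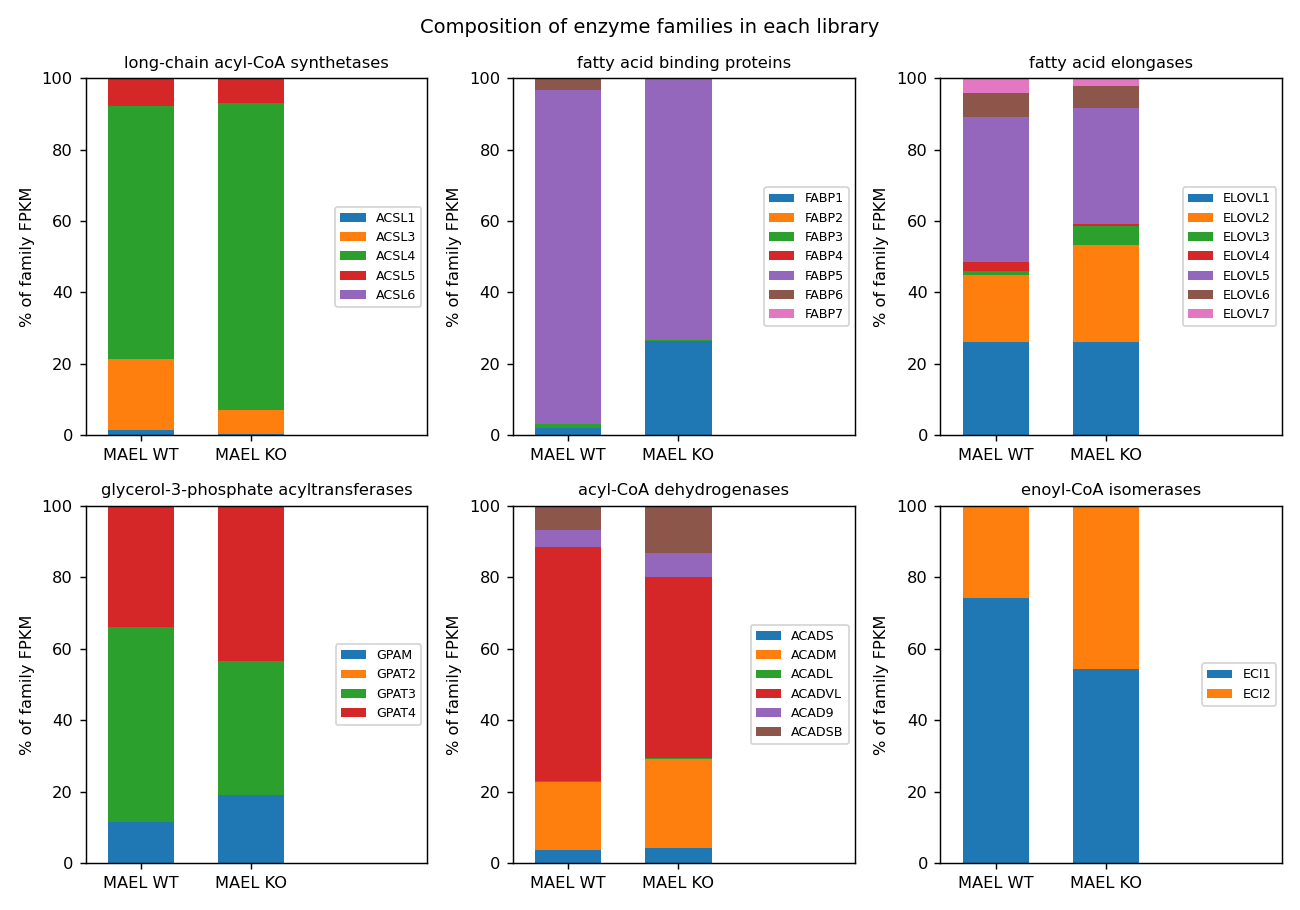
Stacked bars of the percent of summed FPKM that each gene takes in 6 enzyme families, for MAEL WT and MAEL KO. ACSL4 goes from 71.0% to 86.1% of the acyl-CoA synthetases, FABP1 from 2.06% to 26.5% of the binding proteins and ECI2 from 25.7% to 45.8% of the enoyl-CoA isomerases.

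The carnitine shuttle, through which long-chain fatty acids enter mitochondria, was higher in MAEL KO at its entry. CPT1A, the liver form of the rate-limiting enzyme, lies on chromosome 11 from 68754620 to 68844410 on the minus strand. It had 3612 and 7126 counts, or 25.2 and 57.3 FPKM. Its log2 fold change of 1.19 (95% interval 1.13 to 1.25) was the highest among oxidation and ketone bodies, and it was 0.91 with total counts. CPT1A took 96.4% ± 0.359 of the FPKM of the CPT1 forms in MAEL WT and 99.4% ± 0.116 in MAEL KO. CPT2, which regenerates acyl-CoA inside, had 322 and 567 counts and was at 1.02 (95% interval 0.83 to 1.23). It shares 99 exon bases with C1orf123 on the opposite strand. SLC25A20, the carrier between the enzymes, had 343 and 393 counts and was at 0.41.

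Of the member acyl-CoA dehydrogenases, which open each round of oxidation, ACADVL alone was below 0 with TMM factors, and with total counts ACADL was too. ACADVL, for very long chains, had 10140 and 7459 counts and was at -0.23 (95% interval -0.28 to -0.19). ACADM, for medium chains, had 2879 and 3597 counts and was at 0.53, and ACADS, for short chains, had 306 and 339 counts and was at 0.36. ACADL, which plays a small part in human liver, had 31 counts in each library, and its interval of -0.56 to 0.98 included 0. Of the FPKM of ACADS, ACADM, ACADL, ACADVL, ACAD9 and ACADSB, ACADVL took 65.7% ± 0.391 and 50.8% ± 0.417, and ACADM 19.0% ± 0.318 and 24.9% ± 0.360. ACADVL was still the most abundant oxidation member in both libraries.

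HADHA and HADHB encode the subunits of the mitochondrial trifunctional protein, which takes long chains through the next steps. HADHA had 5233 and 5895 counts and was at 0.38 (95% interval 0.33 to 0.44), and HADHB had 2160 and 3311 counts and was at 0.83 (95% interval 0.75 to 0.91). The intervals of these partners did not overlap, and the HADHA to HADHB ratio of FPKM went from 2.36 to 1.74. The genes are transcribed away from each other from RefSeq starts 307 bases apart, which lie on either side of the shared sequence shown above. Their gene models overlap by position but share no exon bases with each other.

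The later steps were mostly higher. HADH, which acts on short and medium chains, had 522 and 905 counts and was at 1.00 (95% interval 0.85 to 1.16). ACAA2, the mitochondrial 3-ketoacyl-CoA thiolase, had 970 and 1367 counts and was at 0.70. ECI1 and ECI2 are the isomerases that unsaturated fatty acids need. ECI1 had 2630 and 1623 counts and was at -0.49 (95% interval -0.58 to -0.40), the lowest among oxidation and ketone bodies, and ECI2 had 1289 and 1941 counts and was at 0.80. ECI2, which is found in mitochondria and peroxisomes, thus went from 25.7% ± 0.649 to 45.8% ± 0.835 of the FPKM of both. It shares 27.1% of its exon bases with C6orf201 on the opposite strand, which had 18 and 14 counts.

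The peroxisomal members were higher as well. EHHADH, the bifunctional enzyme of peroxisomes, had 228 and 416 counts and was at 1.07 (95% interval 0.84 to 1.32). ACAA1, the peroxisomal thiolase, had 561 and 785 counts and was at 0.69, and it shares 19.7% of its exon bases with DLEC1 on the opposite strand, which had 11 and 28 counts. Of 15 other tested genes of peroxisomal oxidation, 5 were above 1, a share of 33.3%, where 10.2% of all tested genes were. Below -1 there were 0, where 16.5% of all tested genes were, and the median log2 fold change was 0.60. With total counts the median was 0.33. Then 2 were above 1 and 1 below -1, where 6.56% and 22.5% of all tested genes were. The highest were AMACR, a racemase of branched chains and bile acid precursors, at 1.78 from 35 and 106 counts, the oxidase ACOX2 at 1.28 and PHYH, which begins phytanate breakdown, at 1.17. Among the lowest were the thioesterase ACOT8 at -0.78 and the transporter ABCD4 at -0.70.

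Both ketone body members were higher in MAEL KO by fold alone. ACAT1, the mitochondrial acetoacetyl-CoA thiolase that serves both the making and the use of ketone bodies, had 1792 and 3199 counts and was at 1.05 (95% interval 0.96 to 1.13). BDH1, which makes beta-hydroxybutyrate, had 21 and 34 counts and was at 0.87 (95% interval 0.08 to 1.76). Other genes of this pathway had a median of 0.04 over 8 tested genes, and of -0.23 with total counts. Among them, OXCT2 was at 0.91, from 21 and 35 counts, the ketone exporter SLC16A1 at 0.65, BDH2 at 0.01 and SLC16A6 at -0.36.

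Other genes of mitochondrial oxidation had a median of 0.27 over 21 tested genes. Of these, 1 was above 1 and 1 below -1, shares of 4.76% each, where 10.2% and 16.5% of all tested genes were. The median was -0.01 with total counts. Then 0 were above 1 and 2 below -1, where 6.56% and 22.5% of all tested genes were. ACADSB, for short branched chains, was highest at 1.12, followed by DECR1 at 0.94 and ACOT11 at 0.92. The lowest were CPT1C at -2.51, from 51 and 7 counts, CPT1B at -0.80 and the carnitine transporter SLC22A5 at -0.65. The lower CPT1 genes were thus forms of brain and muscle with few counts.

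Other genes of synthesis and elongation had a median of 0.18 over 20 tested genes. Of these, 1 was above 1 and 5 below -1, shares of 5.0% and 25.0%, where 10.2% and 16.5% of all tested genes were. The median was -0.09 with total counts. Then 1 was above 1 and 6 below -1, where 6.56% and 22.5% of all tested genes were. ELOVL3 was highest at 2.27, from 55 and 233 counts, followed by the citrate carrier SLC25A1 at 0.88 and HACD3 at 0.81. OLAH, a thioesterase that ends synthesis early, had 20 counts and 1 count, at least 5.76-fold lower against 3 counts per library. The 95% interval of its log2 fold change was -9.48 to -1.47. FADS6 was at -2.62, from 34 and 4 counts, and ELOVL4, which makes very long chains, at -2.54, from 247 and 36. The others below -1, named after their values were seen, were ME1 and FADS3, at -1.20 and -1.09.

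Other glycerolipid genes had a median of 0.26 over 11 tested genes. In each direction 1 was past 1, shares of 9.09% each, where 10.2% of all tested genes were above 1 and 16.5% below -1. The median was -0.01 with total counts. Then 0 were above 1 and 2 below -1, where 6.56% and 22.5% of all tested genes were. AGPAT2, which makes phosphatidate, was highest at 1.06, followed by MOGAT3 at 0.85 and LPIN2 at 0.67, and the lowest were AGPAT4 at -1.57, LPIN1 at -0.93 and GPAT3 at -0.64. Other droplet and lipolysis genes had a median of -0.25 over 13 tested genes. Of these, 0 were above 1 and 3 below -1, a share of 23.1% below, where 10.2% and 16.5% of all tested genes were. The median was -0.52 with total counts. Then 0 were above 1 and 4 below -1, where 6.56% and 22.5% of all tested genes were. G0S2, an inhibitor of PNPLA2, was lowest at -2.10 (95% interval -2.66 to -1.62), from 197 and 39 counts, followed by PLIN1 at -1.45 and CIDEC at -1.13, which coat and fuse droplets in fat cells. HSD17B11 was highest, just under the threshold at 1.00, followed by HILPDA at 0.52 and PLIN4 at 0.43.

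Other genes of uptake and activation had a median of -0.01 over 12 tested genes. Of these, 3 were above 1 and 2 below -1, shares of 25.0% and 16.7%, where 10.2% and 16.5% of all tested genes were. With total counts the median was -0.29. Then 3 were above 1 and 3 below -1, where 6.56% and 22.5% of all tested genes were. The highest were hepatic lipase LIPC at 2.26, from 368 and 1528 counts, FABP5 at 2.05 and the acyl-CoA binding protein DBI at 1.37, from 2631 and 5886. The lowest were FABP6 at -2.27, the lysolipid transporter MFSD2A at -1.55 and SLC27A1 at -0.84.

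**Figure D4:**
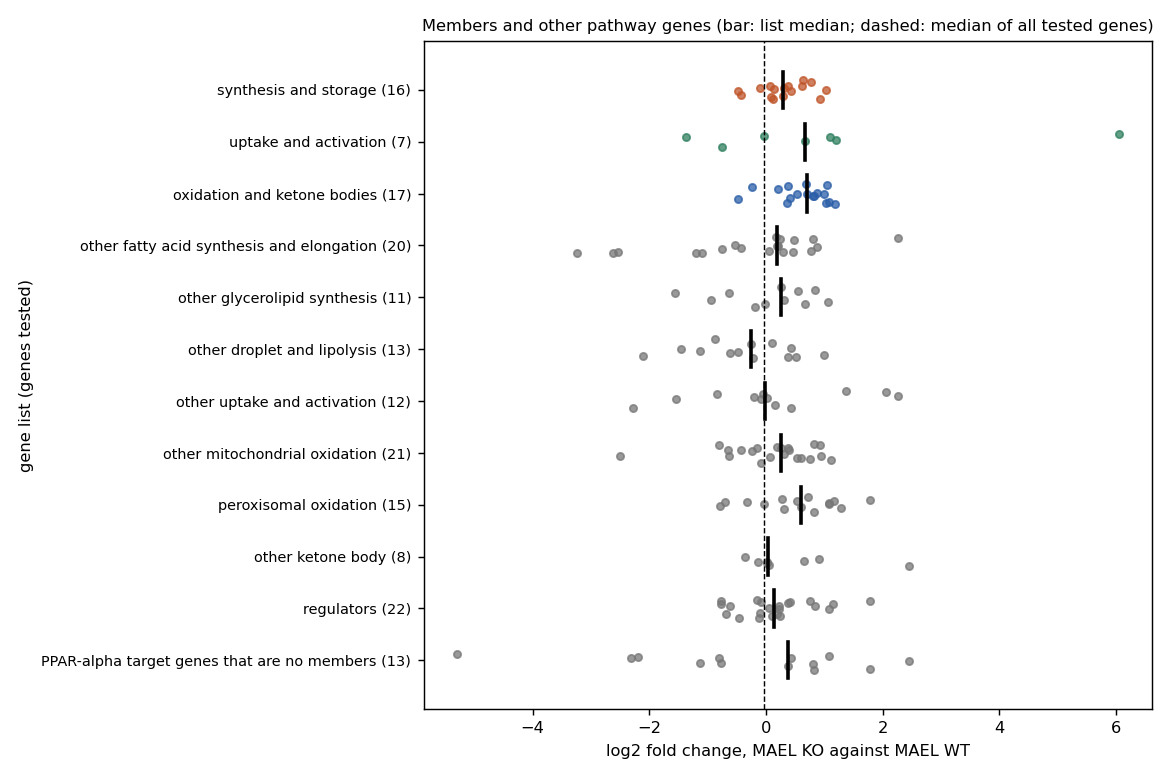
Log2 fold change of each tested gene on the x axis for the 3 member lists and 9 lists of other pathway genes, with the number tested in brackets, a black bar at each list median and a dashed line at -0.04, the median of all tested genes. The medians of oxidation and ketone bodies, at 0.70, and of peroxisomal oxidation, at 0.60, lie to the right of the line, and that of other droplet and lipolysis genes, at -0.25, lies to the left.

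The transcription factors that drive these pathways differed in direction. SREBF1, the main activator of lipogenic genes, had 3456 and 2691 counts and was at -0.15. MLXIPL, which encodes the glucose-sensing factor ChREBP, had 696 and 625 counts and was at 0.06, with an interval of -0.10 to 0.21 that included 0. PPARA, the activator of oxidation in liver, had 1453 and 782 counts and was at -0.68 (95% interval -0.81 to -0.56), and PPARG, which drives storage, had 574 and 564 counts and was at 0.18. HNF4A, which maintains hepatocyte genes, had 2816 and 5391 counts and was at 1.15 (95% interval 1.08 to 1.21). With total counts HNF4A was at 0.87, PPARG at -0.09 and MLXIPL at -0.22. Of 22 tested regulators, 3 were above 1 (CREB3L3, HNF4A and PPARGC1A), a share of 13.6%, where 10.2% of all tested genes were. Below -1 there were 0, where 16.5% of all tested genes were, and the median was 0.15. With total counts the median was -0.13, CREB3L3 alone was above 1, and 2 were below -1, NR1H2 and PPARD. Of all tested genes, 6.56% were then above 1 and 22.5% below -1. CREB3L3, a liver factor of fasting, was highest at 1.78, from 207 and 618 counts. PPARGC1A had 6 and 12 counts, and its interval included 0. NR1H2 was at -0.77 and PPARD at -0.76, so that PPARA was among the 3 lowest.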

How the data were processed

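RNA of 1 MAEL WT and 1 MAEL KO library was read on an Illumina sequencer. The authors deposited read counts per gene, whole numbers without normalization, and FPKM values. Per the labels, the submitters' processing notes name HISAT2 2.0.5, featureCounts 1.5.0-p3 and hg19, whereas the tables carry GRCh38 coordinates, since 58724 of 58735 genes have the start and end of GENCODE 29. The deposited FPKM values follow from count, listed length and a library size of 1.10 times the total count in MAEL WT and 0.910 times in MAEL KO, so they already hold a scaling between libraries. All 4 columns of sample values were used.

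Counts were scaled by TMM in edgeR 4.0.16 (R 4.3.3), with factors 1.10 and 0.909. Genes needed at least 10 counts in 1 library, and 1 was added to normalized counts. Python 3.11.15, NumPy 2.4.6, SciPy 1.17.1, pandas 2.3.3 and matplotlib 3.10.9 were used for the rest. Shares within families are of FPKM, with a counting SE from Poisson error of the counts. Fold changes and intervals were tested on simulated data with Poisson error alone and the same scaling factors. Such data hold no variation between clones, cultures or libraries, so they check the calculation only. Where a fold is given for a gene at or under 3 counts in 1 library, it is a bound against 3 counts. Alternatives were DESeq2 1.42.0 size factors, total counts, the ratio of FPKM values with 0.01 added, 0.1 or 5 added to normalized counts, other count filters and both log2 thresholds, 1 and 2. No test across genes was run, because 1 library per group leaves no replicate error.

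The 41 members and the lists were chosen with earlier results of these data known. Every member is named. Of each other pathway list, up to 3 tested genes at each end are named, and also MAEL, SREBF1, MLXIPL, PPARA, PPARG and HNF4A. Some genes under this rule are not reported here. Other genes are named for a family share, a shared exon or as a marker.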

Additional observations from a re-analysis of the deposited data

How the results depend on the processing

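Of 277 values of the 40 tested members under the alternatives, 244 lay within their counting interval, and the 33 that did not all came with total counts. That scaling took ACACA from 0.12 to -0.16. It moved the median log2 fold change of synthesis and storage from 0.30 to 0.033 and that of all members from 0.48 to 0.20. With total counts the members above 1 were 1 in place of 9 for all members, 0 in place of 1 for synthesis and storage, 1 in place of 3 for uptake and activation and 0 in place of 5 for oxidation and ketone bodies. The members below -1 were 2 in place of 1, both in uptake and activation. At a threshold of 1 in place of 2, the numbers higher were 9 in place of 1 for all members, 1 in place of 0 for synthesis and storage, 3 in place of 1 for uptake and activation and 5 in place of 0 for oxidation and ketone bodies, and the number lower was 1 in place of 0, in uptake and activation. These shifts follow from the construction of the scaling and the threshold. DESeq2 size factors, the FPKM ratio, other added counts and other filters kept each of these counts within 1.5 times and each median within its binomial interval. For the 7 tested genes of uptake and activation that interval runs from the lowest member to the highest, -1.37 to 6.06. It therefore cannot show a shift of that median. HADH, at 1.00, was under 1 with DESeq2 size factors, the FPKM ratio or 5 added, which left 8 members above 1. Without a count filter CD36 entered, and the median of uptake and activation was 0.42 in place of 0.68. With counts in place of FPKM, 49 of 64 shares within families moved, and all 32 differences between the libraries kept their direction. Depth limits CD36, PLIN5, ACADL and BDH1, the members under 100 counts. No paired analysis was possible because there is 1 library per group, and for the same reason no library could be left out.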

Other observations

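Among target genes of PPAR-alpha outside the 41 members, values went both ways. CREB3L3 was at 1.78 on the log2 scale. FGF21, a liver hormone of fasting and stress, had 41 counts in MAEL WT and 0 in MAEL KO, at least 11.8-fold lower against 3 counts per library. VNN1, a pantetheinase, had 33 and 5 counts (log2 fold change -2.31, 95% interval -4.23 to -1.15), and TXNIP, which is induced by glucose, had 636 and 119 counts and was at -2.20. CYP4A11, a fatty acid hydroxylase of liver, had 0 counts in both libraries, where up to 3 counts cannot be told from 0. FGF21, VNN1 and TXNIP were thus lower in the library in which CPT1A and EHHADH were higher.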
